A study of Mus musculus with 10 samples.

Results

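A set of 10 genes that mark successive stages of the neutrophil was followed through the P30 lungs, chosen by name from the 54532 genes of the deposited expression table. The 4 mature genes were S100a8, S100a9, Csf3r and Retnlg, and the 6 precursor granule genes were Lcn2, Ltf, Ngp, Camp, Elane and Mpo. Whole lungs came from C57BL/6J wild-type mice collected on postnatal day 30 (P30). In the IPF group (increased pulmonary flow), 5 mice had received an aortocaval fistula at P7, in which a needle passed from the abdominal aorta into the inferior vena cava joins both vessels. In the sham group, 5 mice had undergone the same operation without the puncture. The question put to the 10 genes was whether the mature and the granule genes differed between IPF and sham lungs, and whether they did so together in the same lungs.

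Neutrophils are made in the bone marrow. Promyelocytes transcribe the primary granule genes, among them Mpo (myeloperoxidase) and Elane (neutrophil elastase). Myelocytes and metamyelocytes then transcribe the secondary granule genes Ltf (lactotransferrin), Camp (cathelicidin), Ngp (neutrophilic granule protein) and Lcn2 (lipocalin 2, which binds bacterial siderophores). Mature cells keep little of this mRNA and carry S100a8 and S100a9, the subunits of calprotectin, together with Csf3r, the receptor for granulocyte colony-stimulating factor, and Retnlg, a resistin-like protein. The lung capillaries normally hold a large pool of mature neutrophils. In mRNA of a whole lung, fewer cells of a type and less RNA per cell cannot be told apart. The methods describe washing out the blood for the stained and dissociated lungs, and say nothing of it for the lungs used for RNA.

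Expression is given as FPKM, fragments scaled by gene length and library size, so that levels can be compared between genes. The reads on genes, recovered from the FPKM values, numbered 16250190 to 19026843 in IPF lungs and 15483046 to 17818542 in sham lungs. Sham replicate 1 and IPF replicates 3 and 5 stood apart within their groups. The chi-square per gene of recovered reads was 15.8 to 23.5 between sham replicate 1 and the other sham lungs, 19.3 to 34.3 in pairs with IPF replicates 3 or 5, and 4.49 to 12.6 in the remaining pairs. Of all genes tested, 18.2% had their highest value in sham replicate 1, 13.3% in IPF replicate 3 and 12.0% in IPF replicate 5. Xist, the RNA of the inactive X chromosome, lay at 26.8 to 43.2 FPKM in IPF lungs and 0.0301 to 0.0767 in sham lungs, and the Y-linked Ddx3y was at 0 in every IPF lung and at 14.3 to 21.4 in sham lungs. Arntl, a gene of the circadian clock, lay at 3.31 to 6.85 FPKM in IPF and 0.311 to 0.452 in sham lungs, and the clock genes Nr1d1 (1.03 to 4.28 against 31.0 to 42.6) and Dbp (1.74 to 3.49 against 23.2 to 29.3) were lower in IPF lungs. The effects of the fistula, of sex and of the phase of the clock on any gene below cannot be told apart. The methods describe balancing the sexes between groups where feasible, and these transcripts divided the 10 lungs by group. The labels do not say whether lungs came from separate litters, and p-values measure only the spread between these samples.

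All 10 genes had a match among RefSeq promoters (GRCm38.p6). The bases before the RefSeq start are shown for 4 of them, since S100a8 is the mature gene against which the others are compared below, Lcn2 was the member that passed the test, and Ltf and Ngp are 2 granule genes whose levels departed from those of S100a8 in 1 lung. These starts differ from the gene positions given below. The Lcn2 stretch lies wholly inside its gene as placed there, and the S100a8, Ltf and Ngp stretches end inside theirs. The C/EBP factors drive granule genes in maturing myeloid cells. Capitals mark matches to a C/EBP-type motif, TTNNGNAA or its reverse complement TTNCNNAA. The stretches lie at chr3:90668821-90669070 (plus strand), chr2:32387740-32387989 (minus strand), chr9:111019042-111019291 (plus strand) and chr9:110419558-110419807 (plus strand) and are written 5′ to 3′ on the strand of the gene, 250 bases each.
S100a8: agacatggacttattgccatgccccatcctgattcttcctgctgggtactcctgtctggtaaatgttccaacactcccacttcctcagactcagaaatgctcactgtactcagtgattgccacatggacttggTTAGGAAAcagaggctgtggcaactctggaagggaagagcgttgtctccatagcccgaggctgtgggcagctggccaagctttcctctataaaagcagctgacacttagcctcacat
Lcn2: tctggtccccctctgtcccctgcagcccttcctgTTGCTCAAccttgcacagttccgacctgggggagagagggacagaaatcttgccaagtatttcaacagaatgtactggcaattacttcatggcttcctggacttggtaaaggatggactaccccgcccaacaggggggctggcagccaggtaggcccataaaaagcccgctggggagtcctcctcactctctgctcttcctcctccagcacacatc
Ltf: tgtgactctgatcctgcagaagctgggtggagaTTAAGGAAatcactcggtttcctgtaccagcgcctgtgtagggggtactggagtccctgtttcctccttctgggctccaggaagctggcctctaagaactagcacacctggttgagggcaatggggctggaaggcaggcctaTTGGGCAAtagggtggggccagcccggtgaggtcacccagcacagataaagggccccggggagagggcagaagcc
Ngp: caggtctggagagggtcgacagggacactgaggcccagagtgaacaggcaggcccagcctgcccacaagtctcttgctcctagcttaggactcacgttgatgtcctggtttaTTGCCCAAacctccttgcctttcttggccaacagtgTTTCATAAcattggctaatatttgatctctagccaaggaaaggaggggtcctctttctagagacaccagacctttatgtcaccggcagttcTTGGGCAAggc
S100a8 and Lcn2 each held 1 match, Ltf 2 and Ngp 3. From 250 bases before the start to 50 after it, a match was found in 6 of the 10 members and in 40.7% of 32851 promoters. Csf3r, Camp, Elane and Mpo had none, so that the matches fell in 3 of 4 mature and 3 of 6 granule genes. GAGGAAG or its reverse complement CTTCCTC, letters bound by PU.1, was found in S100a8, Csf3r, Lcn2, Elane and Mpo, 5 of 10, against 13.6% of all promoters. A match is a description of the sequence only, and these motifs do not divide the mature from the granule genes.

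None of the 4 mature genes passed the test, although the mean of each was higher in IPF than in sham lungs. Over all genes, 1196 of 20448 tested (5.85%) had an adjusted p under 0.05 (limma with Benjamini-Hochberg adjustment), 3.71% higher and 2.14% lower in IPF. All 10 members passed the filter on low values. A single IPF lung, replicate 5, held the highest value of each of the 4. The fold changes below are differences of log2(FPKM + 0.1), which understate the change of low genes.

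S100a8 (ENSMUSG00000056054, chr3:90668978-90670035, plus strand, GRCm38 as in the table) encodes a calcium-binding subunit of calprotectin. Its levels in IPF replicates 1 to 5 were 16.8, 14.3, 20.4, 15.0 and 78.9 FPKM, and in sham replicates 1 to 5 they were 2.36, 11.1, 17.5, 5.02 and 20.5 FPKM. The first 4 IPF lungs lay inside the sham range, which ran from sham replicate 1 at 27 reads (95% Poisson interval 17.8 to 39.3, counting error only) to replicate 5, and IPF replicate 5 lay far above both groups with 969 reads (909 to 1032). The means were 29.1 ± 28.0 and 11.3 ± 7.79 FPKM (SD, n = 5 each, limma adjusted p = 0.255), a log2 fold change of 1.37 with an SE of 0.62.
S100a9 (ENSMUSG00000056071, chr3:90692632-90695721, minus strand) encodes the partner subunit and lies 22596 bases from S100a8. Its levels were 41.2, 29.3, 39.8, 33.5 and 185 FPKM in IPF lungs and 7.44, 18.8, 35.0, 9.55 and 40.1 FPKM in sham lungs. Again IPF replicate 5 stood far above, sham replicates 1 and 4 were the lowest, and the groups overlapped. The means were 65.9 ± 67.0 and 22.2 ± 14.8 FPKM (SD, n = 5 each, limma adjusted p = 0.186), a log2 fold change of 1.46 with an SE of 0.58. The ratio of S100a9 to S100a8 stayed between 1.70 and 3.15 over the 10 lungs.

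Csf3r (ENSMUSG00000028859, chr4:126024550-126044440, plus strand) gives the cell its response to granulocyte colony-stimulating factor. Its levels were 6.02, 3.49, 3.99, 3.82 and 11.4 FPKM in IPF lungs and 2.74, 3.12, 3.40, 2.00 and 3.25 FPKM in sham lungs. The groups did not overlap, by a narrow margin: IPF replicate 2 at 3.49 lay next to sham replicate 3 at 3.40 FPKM. Groups did not overlap for 7.29% of all genes tested, 4.52% with IPF higher. The means were 5.74 ± 3.30 and 2.90 ± 0.562 FPKM (SD, n = 5 each, limma adjusted p = 0.133), a log2 fold change of 0.83 with an SE of 0.29. The exact permutation test over samples gave a two-sided p of 0.00794, the smallest that 5 against 5 allows, and 0.109 after adjustment over all genes.
Retnlg (ENSMUSG00000022651, chr16:48872621-48874496, plus strand) encodes resistin-like gamma. Its levels were 5.15, 3.24, 6.96, 6.20 and 15.0 FPKM in IPF lungs and 1.33, 4.23, 5.46, 2.43 and 6.08 FPKM in sham lungs. IPF replicate 5 was the highest again, sham replicate 1 was the lowest, and the groups overlapped. The means were 7.30 ± 4.51 and 3.91 ± 2.00 FPKM (SD, n = 5 each, limma adjusted p = 0.311), a log2 fold change of 0.89 with an SE of 0.45.

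The 95% intervals of the 4 mature genes, not adjusted for multiple tests, ran from 0.0028 to 2.74 for S100a8, 0.19 to 2.73 for S100a9, 0.19 to 1.47 for Csf3r and −0.10 to 1.88 for Retnlg on the log2 scale. Differences of several-fold therefore lay within them. IPF replicate 5 exceeded the next highest IPF lung 3.86-fold for S100a8, 4.50-fold for S100a9, 2.15-fold for Retnlg and 1.89-fold for Csf3r. Without it the log2 fold change was 0.92 for S100a8, 0.98 for S100a9, 0.55 for Csf3r and 0.59 for Retnlg, and without sham replicate 1 it was 0.92, 1.14, 0.82 and 0.56 in the same order. Without IPF replicate 5 the median log2 fold change of the 4 genes was 0.75 in place of 1.13, and without both that lung and sham replicate 1 it was 0.50, an alternative chosen after seeing the data. In the latter, the log2 fold changes were 0.47 for S100a8 (limma adjusted p = 0.587), 0.67 for S100a9 (0.425), 0.54 for Csf3r (0.200) and 0.26 for Retnlg (0.714).

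**Figure D1:**
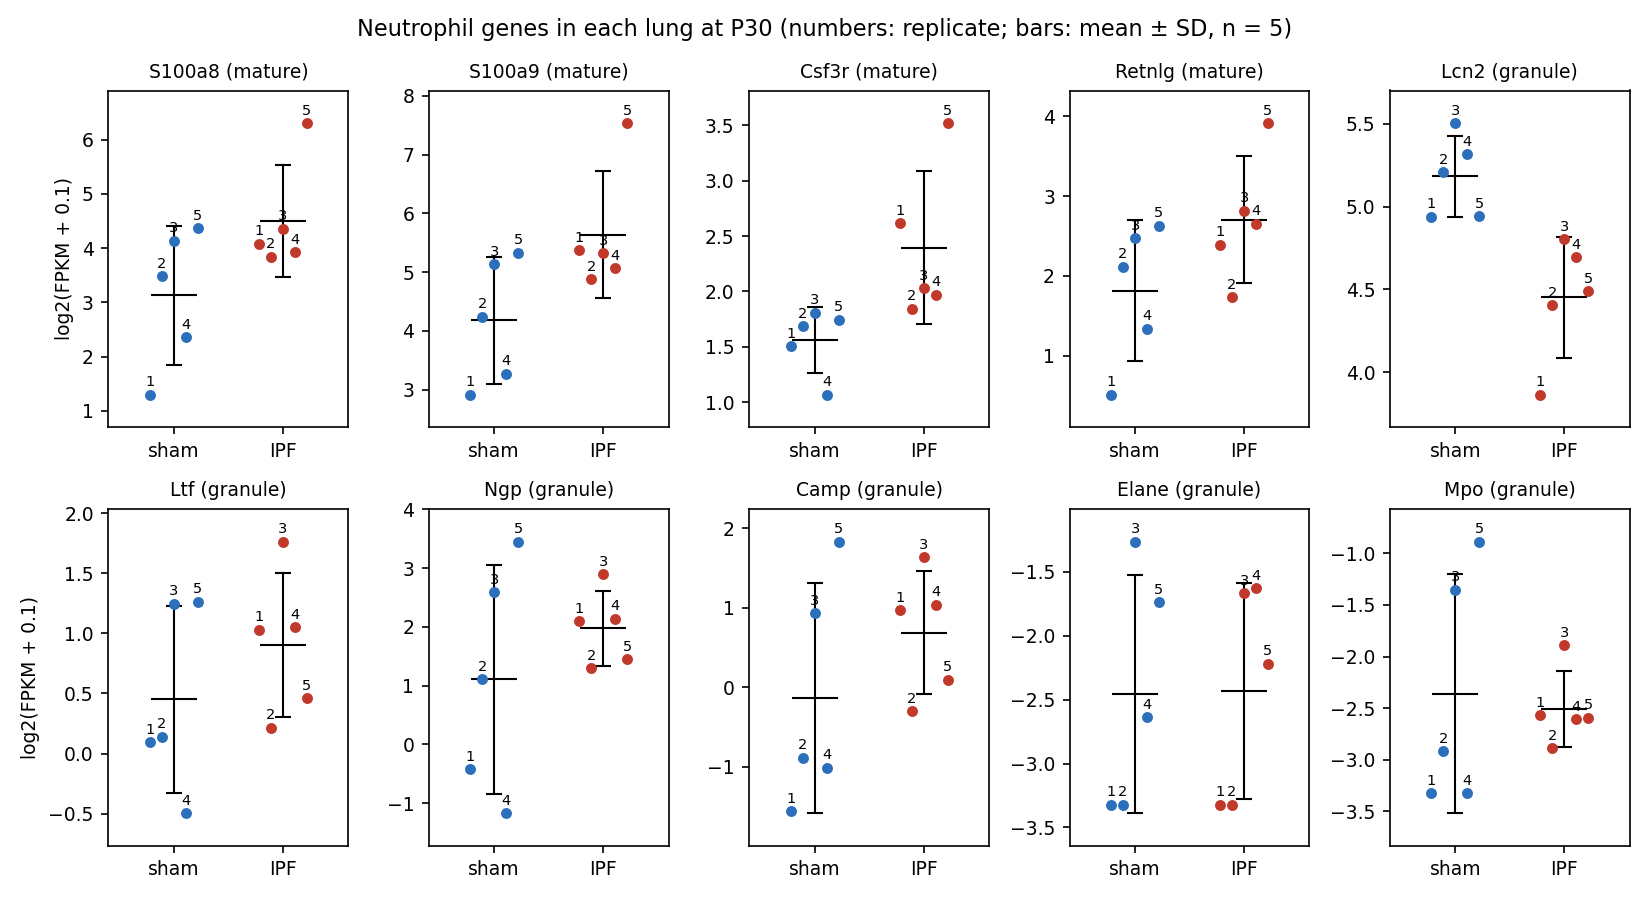
Level of each of the 10 genes in each lung on the log2(FPKM + 0.1) scale (vertical axes, which differ between panels and do not start at 0), sham in blue and IPF in red, with the replicate number at each point and the mean ± SD of 5 lungs as bars. IPF replicate 5 is the highest point in the S100a8, S100a9, Csf3r and Retnlg panels and in none of the granule panels, and the groups are separate for Csf3r and Lcn2 only.

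Among the granule genes, Lcn2 fell in IPF lungs and none of the other 5 passed the test. Of the 10 members, 1 was thus called, lower in IPF, where 2.14% of all genes tested were. Lcn2 (ENSMUSG00000026822, chr2:32384633-32388252, minus strand) lay at 14.5, 21.1, 27.8, 25.8 and 22.3 FPKM in IPF lungs and at 30.6, 36.9, 45.3, 39.8 and 30.6 FPKM in sham lungs. Every IPF lung was below every sham lung, as for 2.77% of all genes tested, and IPF replicate 1 was the lowest. The means were 22.3 ± 5.14 and 36.6 ± 6.28 FPKM (SD, n = 5 each), a ratio of 0.609 and a log2 fold change of −0.73 with an SE of 0.17 (limma adjusted p = 0.0291). It did not pass the study's further limit of an absolute log2 fold change above 1, which together with the adjusted p was met by 1.14% of genes (0.68% higher and 0.46% lower in IPF). The exact permutation test gave a two-sided p of 0.00794, and 0.109 after adjustment over all genes. The limma call was lost without IPF replicate 2 (adjusted p = 0.0737) and without sham replicates 2, 3 or 4 (0.0664, 0.0746 and 0.0743), and without both IPF replicate 5 and sham replicate 1 (0.0584, log2 fold change −0.80). It was also lost with no filter on low values (0.0518) and with no variance trend (0.0582), while over all alternatives the log2 fold change stayed between −0.82 and −0.58.

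Lcn2 is also made by airway and alveolar epithelium. The summed level of 9 secretory airway markers, led by the club cell secretoglobin Scgb1a1, ran from 3713 to 27466 FPKM in IPF lungs (median 5482) and from 11530 to 22996 in sham lungs (median 17475). Scgb1a1 made up most of this sum. Of the 8 of them that could be tested 5 had positive log2 fold changes (median 0.23) and none was called. None of the 9 was at 0 in every lung. Of the 5, Bpifa1, Bpifb1 and Tff2 had means of only 0.438, 0.218 and 0.254 FPKM over the 10 lungs. Among the abundant markers, Scgb1a1 (−1.12) and Cyp2f2 (−0.43) were negative and Scgb3a2 (0.55) was positive. For Scgb1a1 and Cyp2f2, 3 IPF lungs lay below every sham lung and 1 lay above. For Scgb3a2, 3 lay above and 1 below. The summed level of 7 alveolar type 2 markers lay at 17008 to 19226 FPKM in IPF and 12931 to 20472 in sham lungs, with a median log2 fold change of −0.01 and no call. The part of either cell type in the level of Lcn2 was not tested. Over the 10 lungs the levels of Lcn2 ranged over 3.13-fold, those of Ltf over 5.41-fold, those of Camp over 14.4-fold and those of Ngp over 31.5-fold.

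Ngp (ENSMUSG00000032484, chr9:110419747-110423012, plus strand), a cystatin-like granule protein, lay at 4.18, 2.36, 7.36, 4.31 and 2.64 FPKM in IPF lungs and at 0.645, 2.05, 5.91, 0.344 and 10.8 FPKM in sham lungs. Both the highest and the lowest lung were sham, replicate 5 with 202 reads (95% Poisson interval 175 to 232) and replicate 4 with 7 reads (2.81 to 14.4), and the IPF lungs lay between them. The means were 4.17 ± 1.99 and 3.96 ± 4.44 FPKM (SD, n = 5 each, limma adjusted p = 0.596), a ratio of 1.05, while the log2 fold change was 0.87 with an SE of 0.78. Single sham lungs moved the log2 fold change, to 0.30 without sham replicate 4, to 0.48 without sham replicate 1 and to 1.45 without sham replicate 5.
Camp (ENSMUSG00000038357, chr9:109847379-109849617, minus strand), which encodes the antimicrobial peptide CRAMP, lay at 1.86, 0.712, 3.00, 1.95 and 0.969 FPKM in IPF lungs and at 0.240, 0.441, 1.81, 0.396 and 3.46 FPKM in sham lungs. The lowest value, in sham replicate 1, rests on 3 reads. Sham replicate 5 was the highest lung, as for Ngp, and the groups overlapped (log2 fold change 0.83, SE 0.63, limma adjusted p = 0.519). The log2 fold change was 0.47 without sham replicate 1 and 1.32 without sham replicate 5.
Ltf (ENSMUSG00000032496, chr9:111019271-111042767, plus strand), an iron-binding protein of the secondary granule, lay at 1.94, 1.06, 3.30, 1.97 and 1.28 FPKM in IPF lungs and at 0.967, 1.00, 2.27, 0.609 and 2.30 FPKM in sham lungs. IPF replicate 3 was the highest and sham replicate 4 the lowest, and the groups overlapped (log2 fold change 0.45, SE 0.38, limma adjusted p = 0.566). The log2 fold change was 0.22 without sham replicate 4 and 0.24 without IPF replicate 3. The intervals of Ngp (−0.84 to 2.58), Camp (−0.55 to 2.21) and Ltf (−0.38 to 1.29) each hold both 0 and differences above 1 on the log2 scale.

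The primary granule genes were near the limit of detection. Elane (ENSMUSG00000020125, chr10:79886247-79888215, plus strand) had 0, 0, 4, 4 and 2 reads in IPF lungs and 0, 0, 5, 1 and 3 reads in sham lungs, where 3 reads amount to 0.160 to 0.197 FPKM. Mpo (ENSMUSG00000009350, chr11:87793581-87804413, plus strand) had 4, 2, 11, 4 and 4 reads in IPF lungs and 0, 2, 16, 0 and 23 reads in sham lungs, where 3 reads amount to 0.0460 to 0.0566 FPKM. Sham replicates 3 and 5 held the most Mpo, the groups overlapped for both genes, and neither passed the test (log2 fold change 0.02, SE 0.54, limma adjusted p = 0.989 for Elane, and −0.15, SE 0.52, adjusted p = 0.917 for Mpo). The sign of both depended on the setting. With so few reads, a difference between the groups in these genes was left undecided. For Mpo the sham lungs also differed beyond counting error, with 0 reads in replicate 1 (95% Poisson interval 0 to 3.69) and 23 in replicate 5 (14.6 to 34.5).

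**Figure D2:**
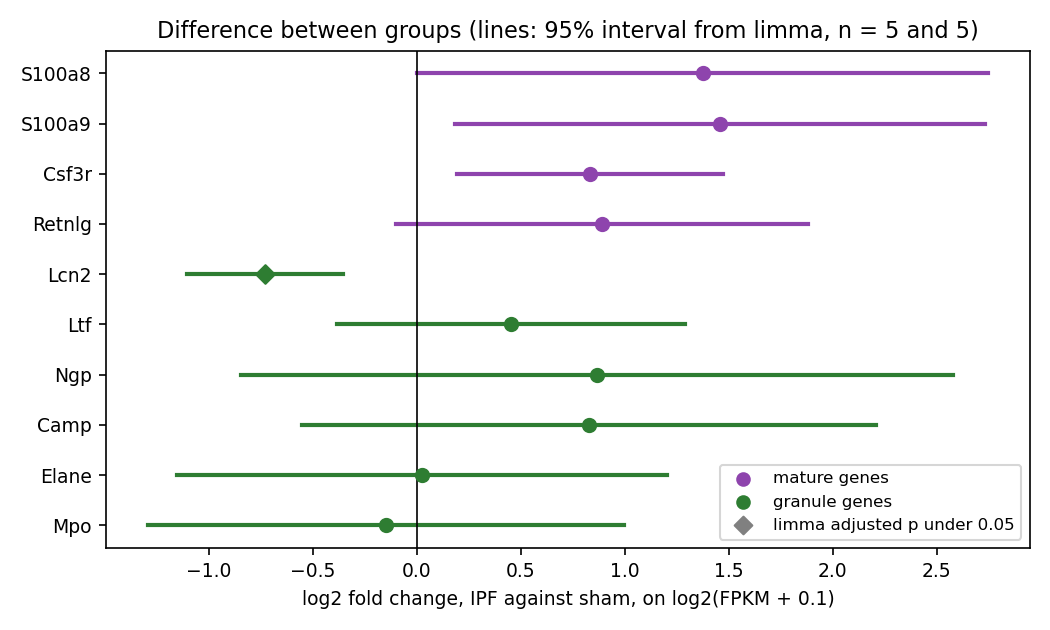
Log2 fold change of each gene, IPF against sham, on log2(FPKM + 0.1) (horizontal axis), as a point with its 95% limma interval over 5 and 5 lungs, not adjusted for multiple tests, mature genes in purple and granule genes in green. The 4 mature genes lie between 0.83 and 1.46, the granule genes lie on both sides of 0, and Lcn2 at −0.73, drawn as a diamond, is the gene with an adjusted p under 0.05.

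In most lungs the mature genes were high where Ltf, Ngp and Camp were high, and IPF replicate 5 departed from this. As a description, the mean log2(FPKM + 0.1) of the 4 mature genes was 3.61, 3.08, 3.63, 3.40 and 5.32 in IPF replicates 1 to 5 and 1.56, 2.88, 3.39, 2.01 and 3.52 in sham replicates 1 to 5. The mean of Ltf, Ngp and Camp was 1.37, 0.40, 2.10, 1.41 and 0.67 in IPF lungs and −0.63, 0.12, 1.59, −0.89 and 2.18 in sham lungs. Sham replicates 1 and 4 were the lowest lungs on both, and sham replicates 3 and 5 the highest sham lungs on both. IPF replicate 5 was the highest of all 10 lungs on the mature genes and the second lowest IPF lung on the granule genes. In it Ltf, Ngp and Camp stood at 0.388, 0.358 and 0.323 of the highest other IPF lung. Sham replicate 5 was the lung with the least mature over granule mRNA: its ratio of S100a8 to Ngp was 1.89, that of IPF replicate 5 was 29.9, and the other lungs lay between 2.78 and 14.6.

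Over all 6 granule genes, the mean log2 level was 0.51 ± 0.52 in IPF and 0.30 ± 1.01 in sham lungs (SD, n = 5 each). The mature mean minus the granule mean was 3.27, 3.18, 2.37, 2.62 and 5.04 in IPF lungs and 2.16, 2.99, 2.11, 2.56 and 2.04 in sham lungs. The 2 groups overlapped, with IPF replicates 3 and 4 inside the sham range, and their means were 0.92 apart (0.49 without IPF replicate 5). With Ltf, Ngp and Camp alone as the granule genes, which leaves out the near-zero genes and Lcn2, the means were 0.42 apart, 0.21 without sham replicate 5, 0.69 without IPF replicate 3, and −0.085 without IPF replicate 5, where the direction turned. The median log2 fold change was 1.13 for the 4 mature genes and 0.24 for the 6 granule genes, and 0.00 for all genes tested. That of the granule genes ran from 0.036 without IPF replicate 3 to 0.49 without sham replicate 3, and leaving out any lung but IPF replicates 1 or 5 moved it by over 1.5 times. All 4 mature genes had positive values, as had 4 of the 6 granule genes.

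**Figure D3:**
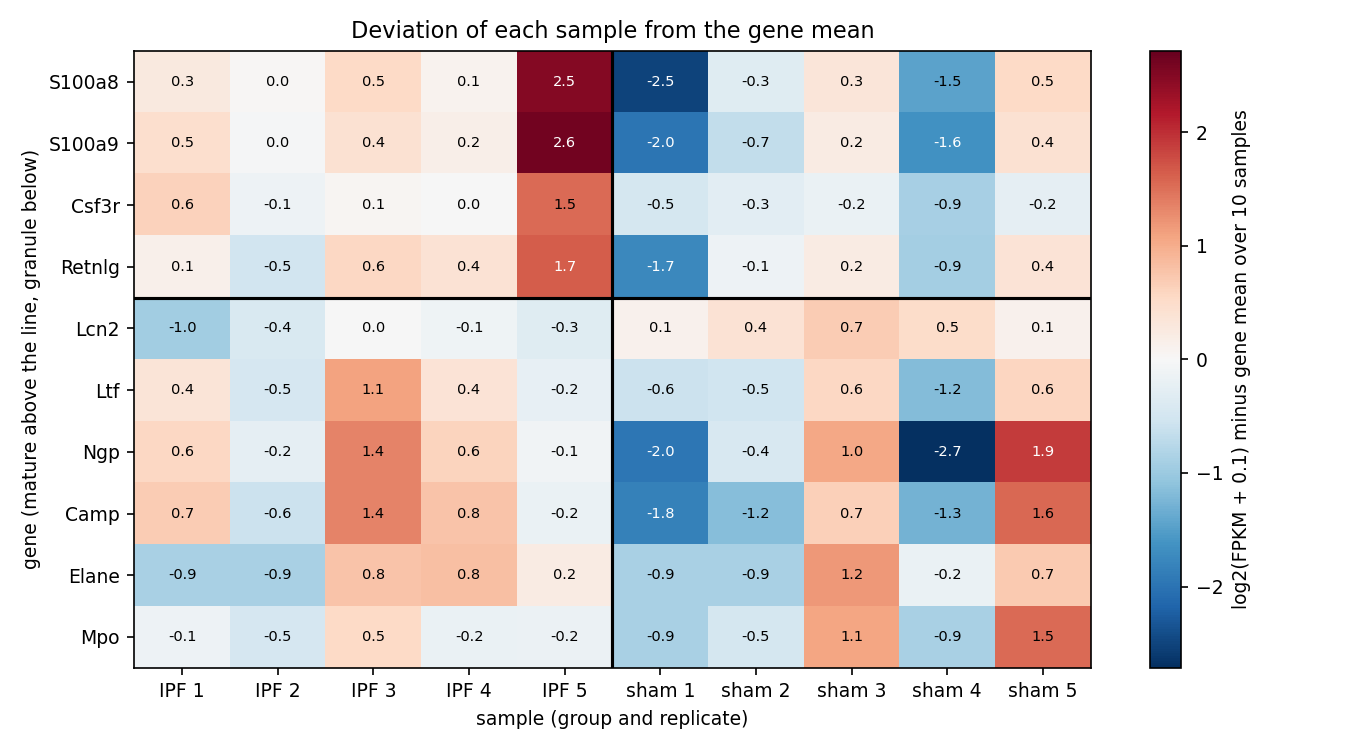
Deviation of each lung (columns) from the gene's mean over 10 lungs, in log2(FPKM + 0.1) units, for each gene (rows), with red above and blue below the mean. IPF replicate 5 is red for the 4 mature genes and near or below the mean for Ltf, Ngp and Camp, and sham replicates 1 and 4 are blue for the mature genes and for Ltf, Ngp and Camp, though not for Lcn2.

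**Figure D4:**
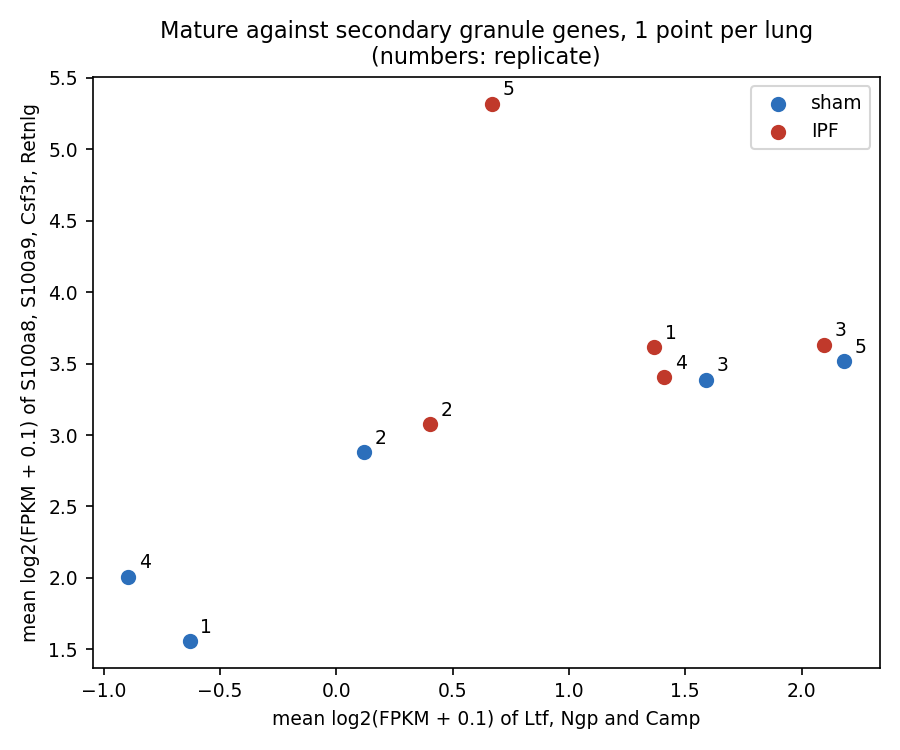
Mean log2(FPKM + 0.1) of S100a8, S100a9, Csf3r and Retnlg (vertical) against that of Ltf, Ngp and Camp (horizontal), 1 point for each of the 10 lungs, IPF in red and sham in blue, with replicate numbers. IPF replicate 5, at 0.67 and 5.32, lies above the other lungs, which rise from sham replicates 1 and 4 at the lower left to sham replicate 5 and IPF replicate 3 at the right.

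The likeness of 2 genes was measured as the root mean square difference of their log2 levels over the 10 lungs, each centred on its own mean, so that 0 means the same course. Libraries and their scaling are shared by all genes compared. S100a8 and S100a9 differed by 0.23, where S100a8 itself varied by 1.25 about its mean and the median gene by 0.25. Among 13445 genes with a mean of at least 1 FPKM, the nearest to S100a8 were S100a9, Retnlg (0.46), Fcgr4 (0.59), an Fc receptor of neutrophils and monocytes, Asprv1 (0.59) and Ifitm6 (0.59). All 5 were highest in IPF replicate 5, the lung where S100a8 peaks, which a choice by likeness to S100a8 favours. None of the 5 was called (limma adjusted p from 0.0847 for Ifitm6 to 0.311). Csf3r stood at rank 23. The granule genes were farther off, Camp at rank 310, Ltf at 542, Ngp at 596 and Lcn2 at 12710.
The nearest to Ngp were Camp (0.55), Ifitm6 (0.79), Ltf (0.81), Mir1258 (0.88) and Gzma (0.91), the last a granzyme gene of cytotoxic lymphocytes that rose in IPF lungs (log2 fold change 1.21, limma adjusted p = 0.0253). That call held when IPF replicates 2 or 5 or sham replicates 3 or 5 were left out, and was lost without any of the other lungs (limma adjusted p up to 0.0702). Retnlg stood at rank 11 and S100a8 at rank 30, ahead of S100a9 at 52, while Csf3r was at 918 and Lcn2 at 12583. Of the 45 pairs among the 10 members, Lcn2 and Ngp were the farthest apart (1.53).

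Other genes of the same stages were read from lists. Among 22 other mature neutrophil genes that could be tested, 2 rose in IPF lungs and none fell, where 3.71% of all genes were called higher and 2.14% lower. Trem1, an activating receptor of neutrophils and monocytes, was 1 of those that rose, at 0.726 to 1.49 FPKM in IPF and 0.421 to 0.569 in sham lungs (log2 fold change 0.79, limma adjusted p = 0.0380). With lungs left out singly, the call of Trem1 held without IPF replicates 1, 3 or 5 and was lost without any of the other 7 lungs (limma adjusted p up to 0.0869). The median of the list was 0.78 on the log2 scale, 21 of 22 values were above 0, and 19 of the 22 were highest in IPF replicate 5, against 12.0% of all genes. These counts include BC100530, Stfa2 and Ly6g, with sham means of 0.0141, 0.0784 and 0.0557 FPKM. They passed the filter of 0.1 FPKM only through their IPF values, which favours a positive sign and a highest value in an IPF lung. The most abundant, Msrb1, Slpi, Fpr1 and Fpr2, were not called, and Slpi and Fpr1 were among the 3 genes that were highest in another lung.
The following 3 were picked after their values were seen, to show the same lung. Cxcr2, the chemokine receptor that draws neutrophils from blood, lay at 6.14 FPKM in IPF replicate 5, at 1.01 to 1.85 in the other IPF lungs and at 0.717 to 1.20 in sham lungs (limma adjusted p = 0.219). Il1b was at 7.71 FPKM there and at 1.38 to 2.47 in the other IPF lungs, with every sham lung lower at 0.787 to 1.17 (adjusted p = 0.0635). Stfa2l1, a stefin, was at 10.3 FPKM there and at most 1.15 elsewhere (adjusted p = 0.130). Ly6g, a surface marker of mouse neutrophils also named after its values were seen, had at most 8 reads in any lung, and lay at 0.480 FPKM in IPF replicate 5, 0.382 in IPF replicate 2, 0.278 in sham replicate 5 and 0 in 5 of the 10 lungs.

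Of 13 other specific and gelatinase granule genes none was called (median log2 fold change 0.17, 9 of 13 above 0, 3 highest in IPF replicate 5). The most abundant, Lyz2, Hp, Chil1 and Anxa1, are also made by macrophages or epithelium, and their log2 fold changes lay between −0.23 and 0.10. Of 7 other primary granule and promyelocyte genes tested 1 was called, beside 3.71% of all genes called higher: Ctsc rose by 0.39 on the log2 scale (63.6 ± 5.80 against 48.8 ± 6.45 FPKM, SD, n = 5 each, limma adjusted p = 0.0340). It encodes the protease that activates neutrophil serine proteases and is made by many other cells, and its call held without IPF replicates 1 or 5 or sham replicate 5 and was lost without any of the other 7 lungs (limma adjusted p up to 0.0867). Prtn3 and Ctsg, specific to promyelocytes and outside the naming rule, had at most 24 and 7 reads and were not called (adjusted p = 0.965 and 0.858). Srgn, Hmgn2 and Nkg7, also tested, are expressed by other cells too, and Ms4a3, Fcnb and Prss57 were too low to be tested. The count over this list is therefore no reading of promyelocytes alone.
Of 8 granulocyte transcription factors 1 was called, beside 2.14% of all genes called lower: Cebpd fell by 0.88 ± 0.21 (SE) on the log2 scale (19.2 ± 7.50 against 34.4 ± 6.14 FPKM, SD, n = 5 each, limma adjusted p = 0.0319). It lay at 15.0, 13.9, 16.6, 18.4 and 32.3 FPKM in IPF lungs and at 26.3, 33.0, 39.5, 41.4 and 31.5 FPKM in sham lungs, so that IPF replicate 5 was within the sham range. Its call held without IPF replicate 5 (limma adjusted p = 0.00114) or sham replicate 1 and was lost without any of the other 8 lungs (up to 0.0840). Cebpd is expressed by many lung cell types. Of 15 growth factor and recruitment genes tested, Selplg, the P-selectin ligand of leukocytes, rose by 0.55 on the log2 scale (10.2 ± 1.19 against 6.88 ± 0.597 FPKM, SD, n = 5 each, limma adjusted p = 0.00571), a call that no single lung ended. The 1 call of 15 stands beside 3.71% of all genes called higher. Csf3, the ligand of Csf3r, was too low to be tested.

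**Figure D5:**
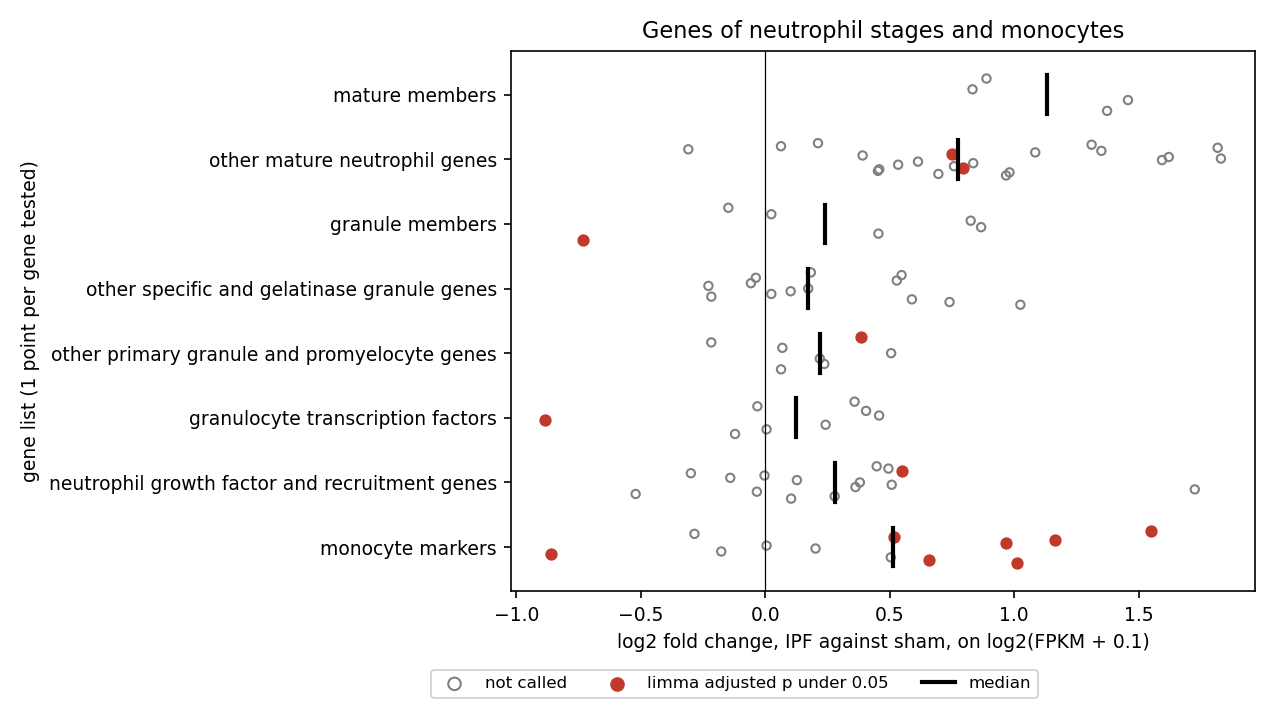
Log2 fold change, IPF against sham, on log2(FPKM + 0.1) (horizontal axis), for each gene tested in 8 lists (rows), filled red at a limma adjusted p under 0.05 and open otherwise, with the list median as a bar. The median is 1.13 for the 4 mature genes and 0.78 for other mature neutrophil genes, 0.24 and 0.17 for the granule genes and other specific granule genes, and 0.51 for monocyte markers.

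Markers of other cells were measured beside the mature genes. Monocytes share many of the genes named above. Of 12 monocyte markers, 6 rose in IPF lungs (Plac8, Cx3cr1, Ccr2, Spn, Ly6c2 and Treml4) and Vcan fell, beside 3.71% of all genes called higher and 2.14% lower. None of the 12 was at 0, and 4 of them were highest in IPF replicate 5, as were 12.0% of all genes. When lungs were left out 1 at a time, the calls of Plac8, Cx3cr1 and Ly6c2 held in 10 of 10 cases, that of Treml4 in 8, Ccr2 in 5, Vcan in 4 and Spn in 2. Ly6c2 lay at 3.46 to 4.65 FPKM in IPF and 1.55 to 2.35 in sham lungs (log2 fold change 1.01, limma adjusted p = 0.00143). The summed level of the 12 was 347 to 498 FPKM in IPF and 409 to 484 in sham lungs, and Ace, which endothelium also makes, was the largest part of it.
The 11 macrophage markers gave no call and sums of 341 to 538 against 292 to 491 FPKM. Of 9 eosinophil and basophil markers 2 were high enough to test, and their sums lay at 0.709 to 1.30 against 0.557 to 1.14 FPKM. Red cell markers gave no call among 10 tested (median log2 fold change −0.34), and their sum ran from 311 to 3272 FPKM in IPF and 825 to 3225 in sham lungs, with IPF replicate 5 at 3272 and IPF replicate 4 at 3225. Platelet markers summed to 21.7 to 32.1 against 17.2 to 23.4 FPKM with no call among 8. Precursors of marrow B cells (5.08 to 13.2 against 7.99 to 13.1 FPKM) and cartilage and bone genes (0.125 to 0.526 against 0.0848 to 0.320 FPKM, none high enough to test) were low in both groups, and 8 cell cycle genes gave no call. The part of monocytes in the levels of the mature genes was not tested.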

How the data were processed

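Whole-lung mRNA of 10 mice, 5 IPF and 5 sham, was analysed. The deposited unit is FPKM per gene and lung. For the processing, the methods name Fastp for trimming, HISAT2 for alignment and StringTie for quantification. GRCm39 is the genome named in the methods, while positions in the deposited table match GRCm38. Multiplied by gene length, 100% of values were whole multiples (tolerance 0.05) of a constant for each lung, which gave the reads behind them. The floor was 3 reads.

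limma 3.58.1 (R 4.3.3, trended variances, no covariate) was run on log2(FPKM + 0.1) for the 20448 genes whose mean was 0.1 FPKM or more, and p-values were adjusted by Benjamini-Hochberg over all of them. Exact permutation tests used the 252 assignments of lungs and were two-sided. Tables were made with Python 3.11.15, pandas 2.3.3, numpy 2.4.6 and scipy 1.17.1. Scripts were tested on simulated data. DESeq2, which the authors used, was not run here. The methods name a KAPA mRNA HyperPrep kit and the labels a NEBNext Ultra kit. Members and lists were chosen with earlier results of these data known. Named genes are the members, of each list the called and the 4 most abundant genes (not all are printed, and 1 called gene is not reported here), and the 5 genes nearest to S100a8 and to Ngp. Alternatives were other pseudocounts, filters, scalings and variance models, array weights, voom on the recovered reads, the replicate block and leaving out lungs.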

Additional observations from a re-analysis of the deposited data

Results flagged for a closer look

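In 3 of 26 groups of 5 lungs examined (the 10 genes and 3 means of log2 levels in IPF and in sham lungs), the gap between the highest or lowest lung and its neighbour took more of the group's range than Dixon's 95% limit allows. Chance gives about 1 in 20 such groups, and the 3 are not independent of each other. The lung was IPF replicate 5 each time. The gap was 0.791 of the range of the IPF lungs for S100a8 and 0.816 for S100a9, both on the log2(FPKM + 0.1) scale, and 0.752 for the mean of the 4 mature genes. For S100a8 and S100a9 the lung stood at 78.9 and 185 FPKM, and the next IPF lungs at 20.4 and 41.2 FPKM.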

How the results depend on the processing

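Every alternative kept the sign of the 8 members other than Elane and Mpo, and no member other than Lcn2 was called under any. Lcn2 alone made up the count of 1 called member. That count was 0 with no filter, with no variance trend and without both IPF replicate 5 and sham replicate 1, and it ran from 0 to 1 when each lung was left out. Over all genes, 233 passed an adjusted p under 0.05 with an absolute log2 fold change above 1, but 74 with a pseudocount of 1 and 154 with a mean FPKM of at least 1, a filter that leaves no value for Elane and Mpo. The log2 fold change of Elane was −0.0033 with a pseudocount of 1, −0.032 with array weights and −0.25 without both lungs, and ran from −0.19 to 0.32 over single lungs left out. That of Mpo was 0.53 with a pseudocount of 0.01 and 0.62 with voom, and ran from −0.39 to 0.22. 

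The deviations of same-numbered lungs from their group means had r from −0.0204 to 0.0953, under the 0.1 set for pairing, so the numbers were not taken as pairs, though 6 of 10 lungs correlated best with their own number, a hint from the data and not from the design. With the replicate block, 202 genes were called, and 1 member, Lcn2 (limma adjusted p = 0.0106). Under it Ctsc (0.0628), Trem1 (0.0600) and Vcan (0.0840) were no longer called. With no filter or no variance trend Cebpd (0.0568 and 0.0623), Ctsc (0.0570 and 0.0681) and Spn (0.0702 and 0.0697) were not, nor were Trem1 (0.0853) and Vcan (0.0619) with no filter, Gzma (0.0510) with no variance trend and Trem1 (0.0537, log2 fold change 0.38) with a pseudocount of 1. Without both lungs Ctsc (0.0690), Gzma (0.0650), Spn (0.0851), Treml4 (0.0526) and Vcan (0.0808) lost their calls. Ifitm6 gained one with voom (0.0212) and without sham replicate 5 (0.0403). Elane and Mpo rest on 0 to 23 reads, and no alternative varied the depth.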

Other observations

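Camp, Ngp and Ltf lie on chromosome 9 in that order, with 570129 bases between Camp and Ngp and 596258 between Ngp and Ltf (GRCm38). Of 23 other genes tested in this interval, 1 was called, higher in IPF, and their median log2 fold change was −0.03. Their course over the 10 lungs was no nearer to that of Ngp than that of genes at large: the median root mean square difference was 1.40 and the smallest 1.29, against a median of 1.39 for all genes, 0.55 for Camp and 0.81 for Ltf. The ratio of Camp to Ngp in FPKM lay between 0.302 and 0.453 in the 5 IPF lungs and between 0.215 and 1.15 in the sham lungs, the 1.15 in sham replicate 4, where Ngp had 7 reads.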
